A study of Mus musculus with 18 samples.

Results

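Chromatin accessibility at the genes for glutamate, GABA and glycine receptors was described in 18 ATAC-seq libraries of mouse retina. ATAC-seq uses a transposase that cuts and tags DNA mainly where it is not packed into nucleosomes, and peaks of tagged fragments mark accessible DNA. The genes were chosen by symbol (Gria, Grik, Grin or Grm with a number, Gabr, Gabbr, Glra and Glrb): the protein-coding genes of the GENCODE M21 annotation (mouse genome build mm10) for subunits of AMPA, kainate, NMDA and metabotropic glutamate receptors, GABA-A and GABA-B receptors and glycine receptors, which gave 49 of 21951 protein-coding genes. A metabotropic receptor gene with a matching symbol was left out and is not among the 49. Peaks of all libraries that overlapped by at least 1 bp were merged into regions, those present in 2 or more libraries were kept, and a region was counted as called in a library that had a peak in it. Of the 73567 regions kept, 219 lay between 10 kb upstream of the start and the end of these 49 genes. A further 80 merged regions in these loci had a peak in 1 library and were dropped.

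The libraries came from wild-type (WT) mice and fell into 6 groups of 3. The study's text names C57BL/6J mice for other experiments, and its methods give no strain for the ATAC-seq. Mice were 3 months (3mo) or 18 months (18mo) old. Retinas were taken from eyes in which intraocular pressure (IOP) had been raised to 30 mmHg, lasting 1 hour, from the opposite eyes of such animals (contralateral controls) and from animals left without treatment (untreated controls). Per the labels, IOP and contralateral retinas were collected on day 2, whereas the study's text gives a later day. The treatment text that all labels share also describes dasatinib, but no label puts a library in a drug arm, and the shared preparation text describes crosslinking and immunoprecipitation where the study's methods describe transposition. The study calls its ATAC-seq replicates biological, but the labels do not tie libraries to animals, so the spread between them may in part be technical. The replicate numbers used are those of the sample titles, and the deposited lists of untreated retinas carry the numbers of replicates 4 and 6 the other way round.

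The lists held 36011 to 66160 peaks per library. The files give peaks and no read depth, so the precision of a call in a single library is not known. The shortest peak of a list was 79 to 89 bp in the 6 untreated libraries and 114 to 157 bp in the other 12, so the kind of control and the way the lists were made cannot be told apart. Start sites of photoreceptor genes were open in all 18 libraries for 5 of 5 markers, such as Nrl and Crx. For bipolar, amacrine, horizontal and ganglion cells, 5 of 12 markers were open in all 18. Of the 4 ganglion cell markers among them, 1 was open in all libraries and 2 in some, and Sncg was called in none. Markers of Müller glia were open in all libraries for 1 of 3 genes and in some for 2, and no start site of the 3 microglial, 2 endothelial, 3 pigment epithelial, 3 corneal and lens or 2 liver markers was called in any library. In whole retina, fewer cells of a type and less open chromatin per cell cannot be told apart.

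Glutamate is the transmitter of photoreceptors, bipolar cells and ganglion cells, and GABA and glycine are the transmitters of most amacrine cells. AMPA, kainate and NMDA receptors are cation channels assembled from several subunits and opened by glutamate, whereas metabotropic (mGlu) receptors act through G proteins. GABA-A and glycine receptors are chloride channels of related structure, and GABA-B receptors act through G proteins as a pair of subunits.

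Start sites were described first, as the place where transcription of each receptor gene begins. A start site was taken as 1 kb upstream to 100 bp downstream of an annotated start. A start-site region was called in all 18 libraries for 15 of the 49 genes (30.6%), against 53.1% of all protein-coding genes. In 24 genes it was called in some libraries, and in 10 genes (20.4%) no start-site region was called in any, against 37.5% of all genes. None of the 6 receptor genes on chromosome X (Gria3, Gabra3, Gabre, Gabrq, Glra2 and Glra4) was among the 15, against 36.5% of all genes of chromosome X, and on the autosomes the shares were 34.9% (43 receptor genes) and 54.3%. These shares are descriptions of these 18 libraries. When a call required peaks over at least 50% of a region, 2 genes in place of 15 kept a start-site region called in all libraries. With the same number of peaks taken from every list, 10 genes did. Without 18mo IOP replicate 3, which had the fewest peaks, 18 genes did.

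**Figure D1:**
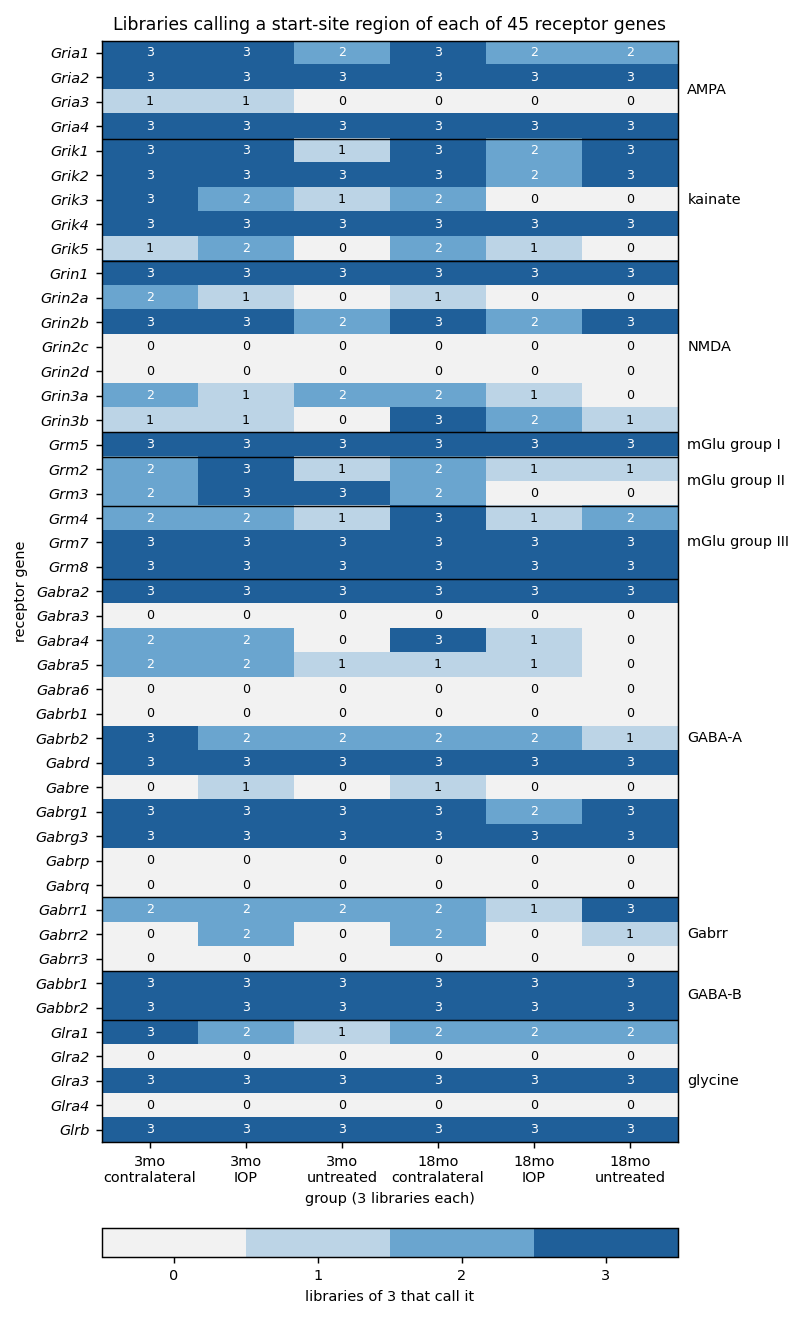
Number of libraries (0 to 3) of each group, in columns, that called a start-site region of each of 45 receptor genes, in rows ordered by family. Full rows of 3 mark the 14 genes shown that were open in all 18 libraries, and rows of 0 the 10 genes with no start-site region called.

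Among the AMPA receptor genes, Gria2, whose subunit limits the calcium permeability of the channel, and Gria4 were called at their start sites in all 18 libraries. Gria1 was called in 15 libraries, and the X-linked Gria3 in 2, both of them 3mo libraries (1 contralateral and 1 IOP). Grin1, the subunit that every NMDA receptor contains, was called in all 18. The glutamate-binding partners of Grin1 ranged from 16 libraries for Grin2b to 4 for Grin2a and none for Grin2c and Grin2d, and the glycine-binding Grin3a and Grin3b were called in 8 each. The 4 of Grin2a also depends on the window, since a region within 1 kb on either side of a start was called in 14 libraries. For Grin2d the region nearest to a start lay 938 bp downstream, in an exon, and was called in all 18 libraries, so that its 0 rests on the width of the window. Taken with 1 kb on either side of a start, an alternative chosen after seeing the data, 18 in place of 15 genes had a region called in every library.

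Among the kainate receptor genes Grik4, a high-affinity subunit, was called in 18 libraries and Grik2 in 17, with Grik1 at 15, Grik3 at 8 and Grik5, the other high-affinity subunit, at 6. Among the metabotropic receptor genes Grm5, which couples to phospholipase C, and Grm7 and Grm8, which act mainly at presynaptic terminals, were called in all 18. Grm4 reached 11 libraries, while a region 622 bp into this gene was called in all 18, and Grm2 and Grm3 reached 10 each.

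Of the 16 GABA-A receptor genes, Gabra2, Gabrg3 and Gabrd, the last a subunit of extrasynaptic receptors, were called at the start site in every library. Gabrg1 reached 17 libraries, and the 1 library without the call was 18mo IOP replicate 3, which had the fewest peaks (36011). Gabrb2 was called in 12, Gabra4 in 8, Gabra5 in 7 and Gabre in 2. Gabrb1 had no start-site region by this window but a region in an intron, 1179 bp downstream of a start, called in all 18. No region at all was found in the loci of Gabra3, Gabra6, Gabrp and Gabrq, and Gabra6 is known mainly from cerebellar granule cells. The GABA-A genes lie in clusters, and 6 of the 219 regions fell into 2 receptor loci, such as those of Gabra4 and Gabrb1.

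The Gabrr subunits, which form the slow GABA receptors of bipolar cell terminals, were called at the start site in 12 libraries for Gabrr1, 5 for Gabrr2 and none for Gabrr3. Gabrr3 nevertheless held 7 regions, of which 1 in an intron, 30570 bp into the gene, and 1 in an exon were called in all 18 libraries. Both GABA-B genes, Gabbr1 for the GABA-binding subunit and Gabbr2 for the subunit that engages the G protein, were called in all 18. Of the glycine receptor genes, Glra3 and Glrb, the subunit that ties the receptor to gephyrin, were called in all 18, Glra1 in 12 and Glra4 in none, and Glra2 had no region in its locus.

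The strength of a peak was read as the percentile of its −log10 q within its own list (100, strongest), because the lists differ in length. Gabbr1 had the strongest start site of the receptor genes, with a lowest percentile of 78.2, a median of 82.0 and a highest of 87.9 over the 18 libraries (mean 82.3 ± 2.95, SD, n = 18). Gabrd had 74.9 ± 6.65, Gria2 69.8 ± 8.22 and Grm8 66.8 ± 7.79, the last in the region whose summit lies outside the start-site window. In this order Gabbr1 lay above Gabrd by more than 1 SD of either, while the other neighbours differed by less than 1 SD.

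Most receptor regions lay in introns, 147 of 219 (67.1%). A further 46 lay at start sites, 13 in exons, 10 upstream and 3 at the start site of another gene inside the locus (Zfp574 in that of Grik5, Kdelr1 in that of Grin2d and Fdxr in that of Grin2c). Of all 219, 43 (19.6%) were called in all 18 libraries, against 33.6% of all regions, and the median region was called in 7 libraries against 12. The shares were 40.8% (20 of 49) against 78.6% for regions overlapping any start site of a protein-coding gene, and 13.5% (23 of 170) against 23.1% for regions in gene loci away from start sites. The receptor genes are long, with a median of 121 kb against 17.4 kb, and held a median of 2.02 regions per 100 kb of locus against 5.19. Among genes of at least 100 kb the medians were 1.37 in 26 receptor genes and 3.36 in all 2492 genes. With the same number of peaks taken from every list, 28 in place of 43 regions were called in all libraries. With peaks required over at least 50% of a region it was 7, and without 18mo IOP replicate 3 it was 47.

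Gabbr2 held the most regions of any receptor gene, 28, most of them intronic. Of the 28, 4 were called in all 18 libraries. These 4 were the start site and regions 132746, 225501 and 302281 bp from the 5′ end, with mean percentiles of 46.7, 70.9 and 60.9, each above the 35.7 of the start site itself. Grik3, Grik4 and Grm8 held 13 regions each. In Grm8, no region was found between the start site and 324966 bp into the gene, and 10 of its 11 intronic regions lay within the stretch from there to 553839 bp. In Grik3 the start site was called in 8 libraries, while an intronic region 167889 bp into the gene was called in all 18.

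**Figure D2:**
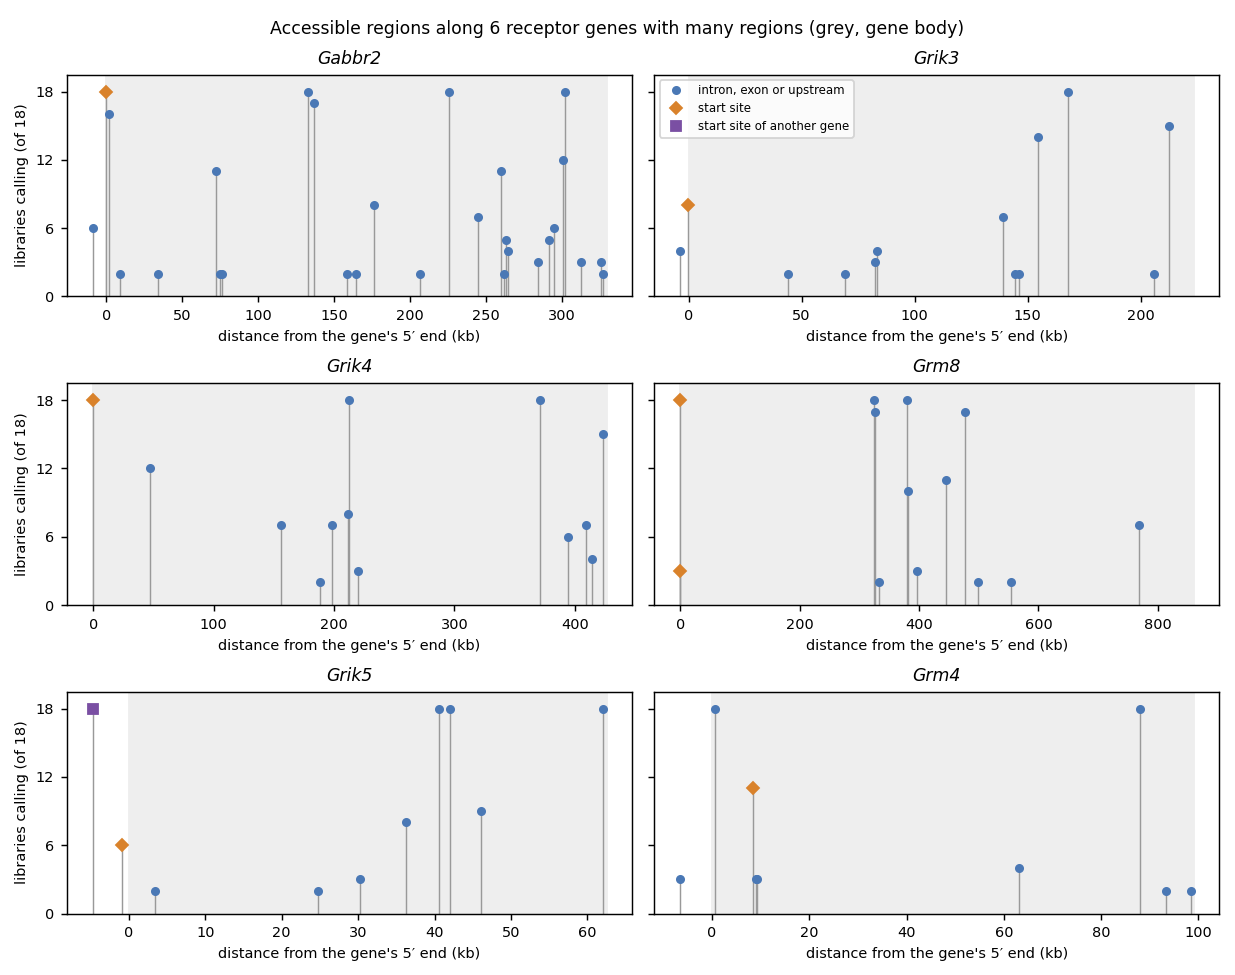
Distance from the 5′ end of the gene (kb, horizontal axis) and number of the 18 libraries that called each region (vertical axis) for 6 receptor genes with many regions, with the gene body in grey. Diamonds are start sites, squares the start site of another gene and circles all other regions. In Grik3 and Grik5 intronic regions were called in all 18 libraries while the start sites were called in 8 and 6.

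The 5 strongest regions away from start sites that every library called lay in Grik5, Grm4, Grm8, Grin2d and Grik3. Sequences of 4 of them, those in Grik5, Grm4, Grin2d and Grik3, are given as examples of regions with strong peaks in every library. Each is a window of 201 bases around the summit, read from mm10 on the plus strand, and capitals mark matches on either strand. Several motifs were searched, none of which contains another. TAATCC is the core bound by the photoreceptor factors Crx and Otx2. TAATTA is bound by other homeodomain factors of the retina. CAGCTG is an E-box, bound by basic helix-loop-helix factors. TTCNNNGAA is bound by STAT factors and TGANTCA by AP-1. TGACGTCA is the cyclic AMP response element. GGGCGG is the GC box of many promoters. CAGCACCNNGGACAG is the core of the element bound by REST.

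Grik5 intron, chr7:25031631-25031831 (+): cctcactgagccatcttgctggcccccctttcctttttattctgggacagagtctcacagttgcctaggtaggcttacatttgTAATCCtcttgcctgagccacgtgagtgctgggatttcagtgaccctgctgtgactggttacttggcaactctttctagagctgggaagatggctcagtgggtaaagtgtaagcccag

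Grm4 intron, chr17:27433392-27433592 (+): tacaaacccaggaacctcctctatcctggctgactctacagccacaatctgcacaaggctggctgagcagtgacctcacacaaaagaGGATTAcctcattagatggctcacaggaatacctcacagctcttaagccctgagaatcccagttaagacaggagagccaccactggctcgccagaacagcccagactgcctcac

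Grin2d exon, chr7:45866091-45866291 (+): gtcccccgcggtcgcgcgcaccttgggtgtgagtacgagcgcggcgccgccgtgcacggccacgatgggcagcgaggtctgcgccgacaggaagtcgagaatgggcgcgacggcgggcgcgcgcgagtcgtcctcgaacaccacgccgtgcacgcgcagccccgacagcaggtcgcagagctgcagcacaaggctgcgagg

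Grik3 intron, chr4:125658489-125658689 (+): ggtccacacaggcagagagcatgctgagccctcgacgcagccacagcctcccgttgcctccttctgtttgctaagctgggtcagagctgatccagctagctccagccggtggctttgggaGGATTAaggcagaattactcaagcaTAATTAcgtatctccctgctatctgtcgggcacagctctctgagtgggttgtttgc

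The Grik5 region (7:25031013-25032124, 40561 bp from the nearest start) had percentiles from 82.8 to 96.0 with a median of 90.0. That of Grm4 (17:27432959-27434069) ranged from 82.7 to 94.3 (median 89.6), that of Grm8 from 78.1 to 92.8 (median 87.7) and that of Grin2d (7:45865938-45866741) from 73.4 to 90.3 (median 86.0). The Grik3 region (4:125658141-125658920) varied most, with a mean of 77.6 ± 10.5 (SD, n = 18). Its lowest value was in 18mo IOP replicate 3, the library with the fewest peaks. The windows of Grik5, Grm4 and Grik3 held TAATCC, that of Grik3 also TAATTA, and that of Grin2d none of the motifs. A match is a description of letters. TAATCC was found in 12.8% of the 219 receptor windows and in 15.4% of the windows of all 73449 regions on the chromosomes searched, and CAGCTG in 18.3% and 17.3%. The REST element was found in 0.457% and 0.0463%, the first being 1 window.

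The numbers of receptor regions called differed between libraries. The 3mo contralateral libraries called 99, 174 and 107 of the 219, the 3mo IOP libraries 116, 106 and 111, and the 3mo untreated libraries 97, 94 and 146. At 18mo, the contralateral libraries called 151, 123 and 136, the IOP libraries 112, 113 and 67, and the untreated libraries 104, 86 and 84. The groups overlapped at 3mo. At 18mo the contralateral libraries (137 ± 14.0, SD, n = 3) lay above every IOP (97.3 ± 26.3) and untreated (84 to 104) library. The lowest count, 67, was that of 18mo IOP replicate 3, which also had the fewest peaks (36011), and the groups did not overlap without it either. The share of all 73567 regions called moved with this, at 65.8 to 74.2% in the 18mo contralateral libraries, 46.6 to 62.6% in the 18mo IOP libraries and 59.4 to 62.7% in the 18mo untreated ones, and its part in the difference was not tested.

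Per 1000 regions called, receptor regions numbered 2.78 ± 0.190 (SD, n = 3 in each group) in 3mo contralateral, 2.53 ± 0.0775 in 3mo IOP and 2.42 in 3mo untreated libraries. At 18mo they numbered 2.64 in contralateral, 2.31 in IOP and 2.02 in untreated libraries. On this scale the 18mo contralateral libraries (2.54 to 2.77) still lay above the 18mo untreated ones (1.82 to 2.26), and the margin to the highest 18mo IOP library (2.53) was small.

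**Figure D3:**
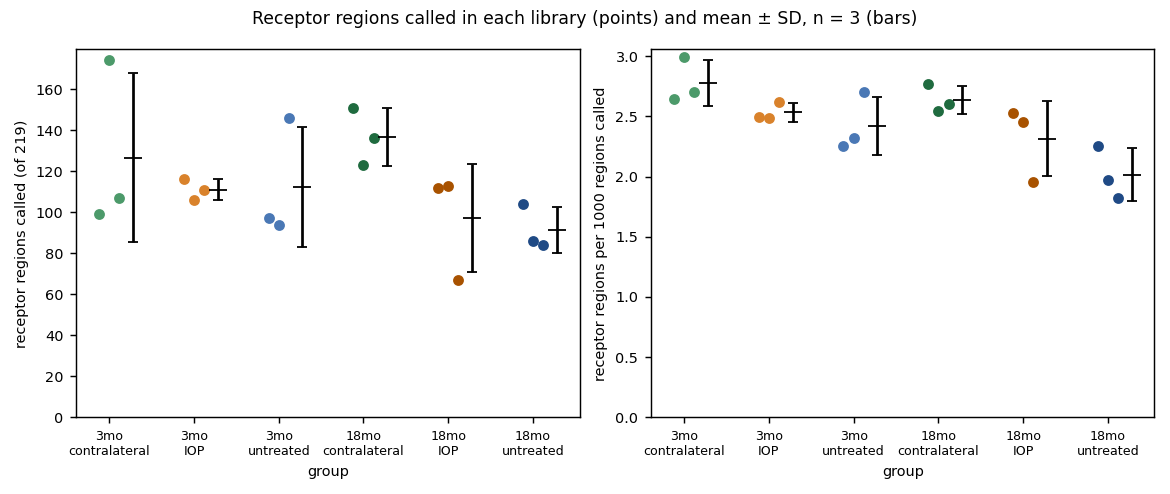
Receptor regions called in each library out of 219 (left) and per 1000 regions called in the same library (right), by group, with points for libraries and bars for mean ± SD (n = 3). The 18mo contralateral libraries, at 123 to 151 regions, sit above the 18mo IOP (67 to 113) and untreated (84 to 104) libraries.

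The first comparison asked whether receptor regions were called more often in older retinas, with 6 control libraries (contralateral and untreated) at each age. No receptor region passed. By Fisher's exact test (two-sided) on calls in 6 against 6 libraries, 0 of the 30 receptor regions whose counts allowed p under 0.05 were called more often at 18mo at unadjusted p under 0.05, against 3.19% of the 9868 such regions of the genome, and 0 more often at 3mo, against 0.385%. After Benjamini-Hochberg adjustment 0 regions of the genome passed (0%), with a smallest adjusted p of 0.345 by Fisher's exact test. The smallest p of a receptor region was 0.0606, in 2 regions. An intronic region of Grin2d (7:45857117-45858039) was among them, called in 2 of 6 control libraries at 3mo (1 contralateral and 1 untreated) and in 6 of 6 at 18mo. With 8 calls in the 12 libraries it could not reach p under 0.05 and was not among the 30. It was named after its value was seen. The 3mo IOP libraries called it in 0 of 3 and the 18mo IOP libraries in 3 of 3. With the kind of control as a stratum of the exact test, the counts of receptor regions stayed 0 in both directions. Leaving out 3mo contralateral replicate 2 or 3mo untreated replicate 6 brought 1 region more often called at 18mo under 0.05, and leaving out 3mo untreated replicate 4 or 5 brought 1 more often called at 3mo.

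Within a kind of control, 3 libraries against 3 cannot give an exact p under 0.1, so regions called in 3 of 3 libraries of a group and 0 of 3 of the other were counted with no test. Among contralateral controls, 3 receptor regions were called only at 18mo (1.14% of all regions), in introns of Grm8, Gabrr1 and Gabbr2, and 2 only at 3mo (0.122%), among them a start site of Grik2. Among untreated controls, 0 were called only at 18mo (0.892%) and 3 only at 3mo (0.776%), among them an intronic region of Grik4 and a region at the start site of Grm3 (5:9725830-9726253), a receptor that inhibits adenylyl cyclase. No receptor region was exclusive to an age in both kinds of control. The Grm3 region was called in all 3 untreated and 2 of 3 contralateral libraries at 3mo, and in 0 and 2 of 3 at 18mo. The Grm8 intron region (6:27690003-27690400) was called in no 3mo contralateral or IOP library, in all 3 contralateral and untreated libraries at 18mo and all 3 untreated libraries at 3mo.

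The Grik2 start-site region (10:49782854-49783652), whose summit lies 160 bp downstream of an annotated start inside the gene and 5667 bp downstream of the gene's 5′ end, was called in all 6 contralateral and IOP libraries at 3mo and in none of the other 12. The region at the 5′ end of Grik2 was called in 17 libraries, including all 9 at 3mo. The part of the start-site region upstream of the annotated start is shown for Grik2, a region found only in 3mo libraries, and for Gabra4, which is described with the controls. The stretches stop where annotated untranslated exons begin.

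Grik2 start site, chr10:49783546-49783652 (+): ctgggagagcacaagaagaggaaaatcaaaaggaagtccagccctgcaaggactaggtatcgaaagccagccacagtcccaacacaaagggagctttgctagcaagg

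Gabra4 start site, chr5:71658364-71658435 (+): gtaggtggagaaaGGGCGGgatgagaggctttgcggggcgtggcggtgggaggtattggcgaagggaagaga

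The GC box was found in the stretch of Gabra4 (72 bases) and not in that of Grik2 (107 bases). Around the summits of start-site regions, in windows of 201 bases, it was found in 51.0% (25 of 49) of the receptor regions and 60.7% of all.

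The share of regions called per gene was compared for genes with at least 5 regions, 17 of the 49 receptor genes among 3748, as log2 of the number of called regions plus 0.5 per 10000 regions called in the library, with limma and the kind of control as covariate. By limma's adjusted p under 0.05, 0 of the 17 genes were higher at 18mo, against 1.15% of all genes tested (43), and 0 lower, against 0.667% (25). At unadjusted p under 0.05, 0 receptor genes were higher, against 7.84% of all genes tested (294), and 3 were lower, against 6.46% (242), namely Grin2b, Grm5 and Grik4. Grin2b had a log2 difference of −0.48 (SE 0.147, limma adjusted p = 0.0992), Grm5 one of −0.64 (SE 0.209, adjusted p = 0.125) and Grik4 one of −0.32 (SE 0.143, adjusted p = 0.321). Positive differences on this scale were found for Gabrr2 (0.39), Grm4 (0.32), Gabrr1 (0.25), Grin2d (0.18) and Grm8 (0.07), all without passing. The median over the 17 genes was −0.23, and over all genes tested 0.0066. With a cover of 50% required for a call, 1 receptor gene passed.

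**Figure D4:**
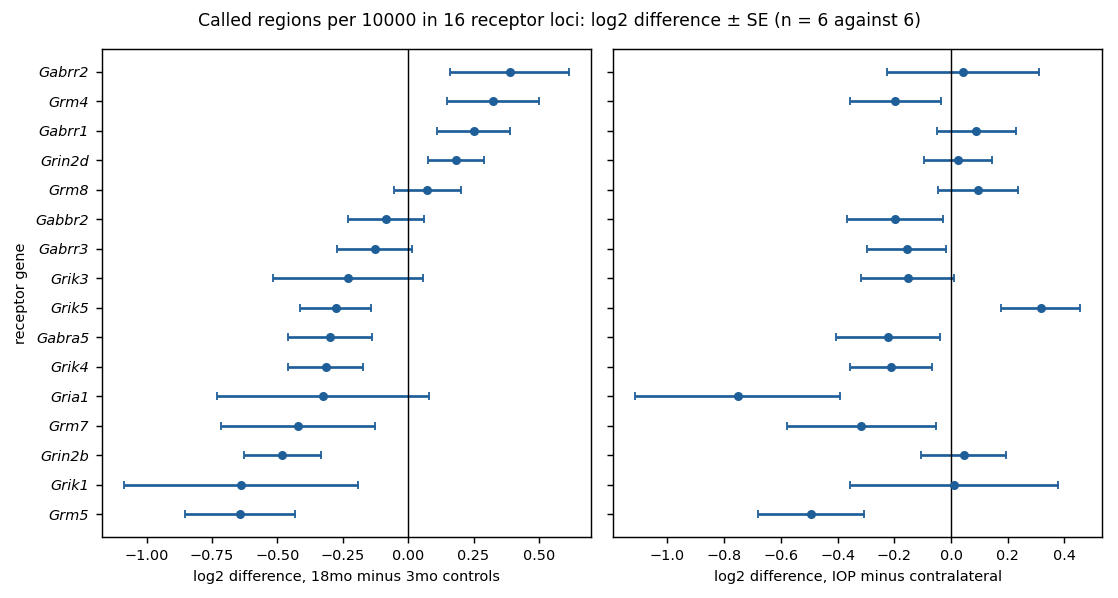
Log2 difference ± SE in called regions per 10000 (plus 0.5 on the count) for 16 of the 17 receptor genes with at least 5 regions, 18mo minus 3mo controls (left) and IOP minus contralateral (right), 6 libraries against 6 in each. Grm5 and Grin2b lie at −0.64 and −0.48 with age, Grm5 and Grik5 at −0.49 and 0.32 with IOP, and no adjusted p was under 0.05.

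The second comparison asked what elevated IOP changed against the contralateral eye. Across both ages, in an exact conditional test (two-sided) stratified by age, 1 of 25 receptor regions was called more often after IOP at unadjusted p under 0.05, against 1.62% of the 5572 regions testable, and 0 were called less often, against 3.43%. After adjustment 0 regions of the genome passed (0%), with a smallest adjusted p of 0.397 in the exact test. The receptor region was intronic in Grik5 (7:25026045-25026414, 46053 bp from the nearest start). It was called in all 3 IOP libraries at both ages, in 1 of 3 contralateral libraries at 3mo (replicate 2) and in 0 of 3 at 18mo, which makes 6 of 6 IOP and 1 of 6 contralateral libraries (exact test p = 0.02, adjusted p = 0.397). Untreated libraries called it in 2 of 3 at 3mo (replicates 4 and 6) and 0 of 3 at 18mo, so at 3mo untreated retinas lay between the others. It did not pass with equal numbers of peaks or with peaks required over at least 50% of a region, where the count was 0 each time. With the replicate number as a block the count was also 0, but the region could not pass there. That test falls under 0.05 only when all 6 pairs differ, and 1 contralateral library also called the region. Without 3mo contralateral replicate 1 or 3mo IOP replicate 2, 2 receptor regions were called less often.

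The sequence of this Grik5 region is shown because it was the only receptor region with an IOP test under 0.05. It held no match to the motifs listed above.

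Grik5 intron, IOP, chr7:25026139-25026339 (+): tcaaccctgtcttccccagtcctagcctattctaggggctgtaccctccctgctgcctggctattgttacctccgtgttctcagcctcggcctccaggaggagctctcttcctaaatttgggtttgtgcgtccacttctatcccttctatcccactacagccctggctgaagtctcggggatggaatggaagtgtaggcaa

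At 3mo, 0 receptor regions were called only in the IOP libraries (0.217% of all regions) and 1 only in the contralateral libraries (0.241%). At 18mo, 1 region was called only after IOP (0.239%), the Grik5 region above, and 7 only in the contralateral libraries (2.23% of all regions, and 3.20% of the 219). The contralateral libraries are the same as in the comparisons of ages and of controls. The libraries that moved the counts most were 3mo contralateral replicate 1, without which the 1 became 9, and 18mo contralateral replicate 2, without which the 7 became 15, in comparisons of 2 against 3 libraries. With equal numbers of peaks per library the 7 became 3.

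The 6 strongest of these 7 regions lay in introns of Grin3a, Grik4, Gabra5, Gabrr1 and Gabbr2 and upstream of Gabrd. The Grin3a region (4:49688697-49688893) was also called in 2 of 3 contralateral and 2 of 3 IOP libraries at 3mo (replicates 2 and 3 in both) and in 0 of 6 untreated libraries. The Grik4 region (9:42550258-42550574) was called in 1 contralateral and 2 IOP libraries at 3mo and no untreated library. Neither was therefore particular to 1 eye at 3mo. The Gabrd region (4:155402604-155403049) was called in 2 of 3 untreated libraries at each age and 1 of 3 contralateral libraries at 3mo, and in 0 of 6 IOP libraries (exact test p = 0.05, which is not under the threshold). The Gabrr1 region (4:33160826-33161136) was called in 1 further library, 3mo untreated replicate 4, the Gabra5 region (7:57487018-57487256) in 4 further libraries and the Gabbr2 region (4:46731733-46732088) in 8.

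**Figure D5:**
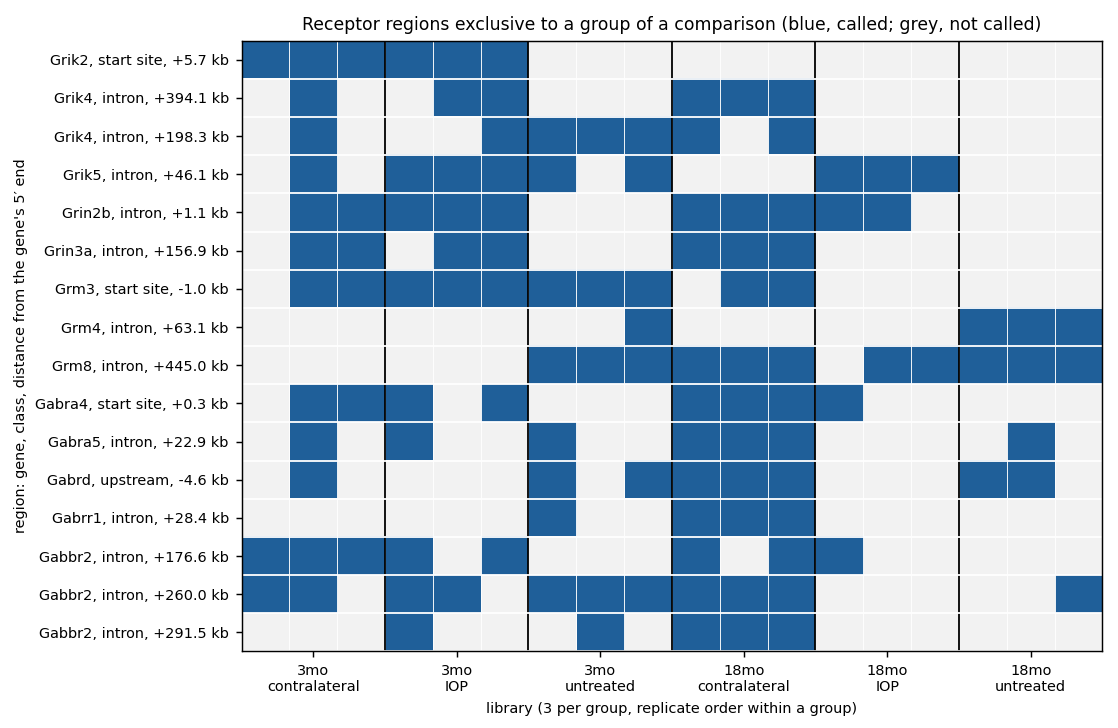
Calls (blue) of 16 receptor regions that were called in all libraries of a group and none of the other in a comparison (up to 6 per direction), by library in columns and with gene, class and distance from the gene's 5′ end in rows. The Grik5 region at 46.1 kb is blue in all 6 IOP columns and 1 of 6 contralateral columns, and the second Grik2 start site in the 6 contralateral and IOP libraries of 3mo alone.

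By gene, limma with age as covariate called 0 of the 17 receptor genes higher after IOP, against 0.0800% (3 genes) of all tested, and 0 lower, against 0%. At unadjusted p under 0.05, 1 was higher, Grik5 (log2 difference 0.32, SE 0.139, limma adjusted p = 0.515), and 1 lower, Grm5 (−0.49, SE 0.187, adjusted p = 0.439), against 4.88% (183) and 4.00% (150) of all genes tested, so that 1 of 17 each way was near the share of all genes. Gria1 had the largest difference of the 17, −0.75, with an SE of 0.362. No difference in the effect of IOP between ages was detected by limma's interaction term, at 0 of 17 receptor genes and 0 of 3748 genes, and at unadjusted p under 0.05 it was 0 of 17, with 90 of all genes positive and 94 negative.

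The kinds of control were also set beside each other, since their lists differed in the shortest peak. At 3mo, 2 receptor regions were called only in contralateral libraries (0.489% of all regions), the second Grik2 start site and an intronic region of Gabbr2, and 1 only in untreated libraries (1.25%), the Grm8 intron region. At 18mo, 8 were called only in contralateral libraries (3.11% of all, and 3.65% of the 219) and 1 only in untreated libraries (1.24%), an intronic region of Grm4. The libraries that moved these counts most were 18mo contralateral replicate 2, without which the 8 became 25, and 3mo contralateral replicate 1, without which the 2 became 10. With peaks required over at least 50% of a region these counts were 22 and 17.

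Several of these were missing from untreated libraries of both ages. The Gabra4 start site (5:71657621-71658435) was called in 8 of 12 contralateral and IOP libraries (all 3 of the 18mo contralateral group) and in 0 of 6 untreated ones. A region of Grin2b 702 bp downstream of a start (6:136172138-136172653) was called in 10 of 12 and in 0 of 6. The Gabbr2 region (4:46815006-46815435) was called in 8 of 12 and 0 of 6. The Grm4 region (17:27458255-27458466) was called in 0 of 12 and 4 of 6, of which all 3 at 18mo. The shortest-peak difference between the lists moves with these regions, and its part in them was not tested.

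Other start sites were called less often at 18mo without passing a test. Grik3 was called in 3, 2 and 1 of 3 libraries at 3mo (contralateral, IOP and untreated) and in 2, 0 and 0 at 18mo. Grin2a was called in 2, 1 and 0 at 3mo and in 1, 0 and 0 at 18mo. These Grin2a calls were weak, with a mean percentile of 4.07, and a region within 1 kb of a start of the gene was called in 14 libraries. Grin3b went the other way, with 1, 1 and 0 at 3mo and 3, 2 and 1 at 18mo. These were named after their values were seen.

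The wider set of 51 genes for transporters, synthetic enzymes, scaffold proteins and auxiliary subunits of the same synapses was described in the same way. Of these, 28 had a start-site region called in all 18 libraries, against 53.1% of all genes, and 6 had none, and 103 of their 385 regions (26.8%) were called in all 18, against 33.6% of all regions. In the age test, 1 of 47 testable regions was called more often at 18mo at unadjusted p under 0.05, in Grip1, which binds AMPA receptors (Fisher's exact test p = 0.0152, adjusted p = 0.424), and 0 more often at 3mo, against 3.19% and 0.385% of all testable regions. In the IOP test, 2 of 36 were called more often and 3 less often, against 1.62% and 3.43%. A region of the glutamate transporter gene Slc1a1 (19:28852425-28852785) and a region of the scaffold gene Dlg2 (7:91670819-91671336) were present in 6 of 6 IOP libraries and in 0 of 6 contralateral ones (exact test p = 0.005, adjusted p = 0.397, the smallest p the test can give). Regions of the inhibitory scaffold gene Gphn and of Shank2 were each present in 0 of 6 IOP libraries and in 5 of 6 contralateral ones (exact test p = 0.02, adjusted p = 0.397). The Slc1a1 region was called in 0 of 6 untreated libraries and the Dlg2 region in 3 of 6. None passed after adjustment.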

How the data were processed

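Each library was deposited as a peak list. The authors aligned reads with STAR 2.7.8a to mm10 and called peaks with MACS2 at a q-value of at most 0.05, per library. The deposited lists give each peak's start, end and summit, a score, a fold enrichment at the summit (a ratio) and p- and q-values on a −log10 scale. The lists hold no reads per region, so a call says that a library passed the threshold and a missing call may reflect depth.

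Peaks overlapping by at least 1 bp were merged and kept with at least 2 libraries. Calls were compared with exact tests over all regions (scipy 1.17.1), adjusted by Benjamini-Hochberg over regions whose counts allowed p under 0.05, and gene values with limma 3.58.1. The functions were tested on simulated data. Gene positions came from GENCODE M21 and sequences from the GRCm38.p6 genome, the same build. Groups came from the labels. Alternatives were a q of at most 0.01, equal numbers of peaks (36011), at least 50% cover, no filter on regions and a pseudocount of 2 in place of 0.5. Further ones were a replicate block, the kind of control as a stratum of the age test, and leaving out each library. A start site of 1 kb on either side was added after seeing the data. Regions were named when exclusive to a group (up to 6 per direction), under an unadjusted p of 0.05, or among the 5 strongest in all libraries away from start sites. Other regions, such as the intronic Grin2d region of the age comparison, were named outside these rules after their values were seen. Members and lists were chosen with earlier results of these data known. Some genes of these families are not reported here by name, and some sequences are not shown. Scores, fold enrichments and p-values of the lists were not used.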

Additional observations from a re-analysis of the deposited data

Results flagged for a closer look

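The flags came from a test of 54 sets of 6 control libraries for a highest or lowest library far from the rest (Dixon's test), in which chance flags about 1 in 20. In the 3mo controls, contralateral replicate 2 called 26 regions of the NMDA receptor genes, and the nearest other library 16. That replicate also had the longest peak list of all libraries (66160 peaks), whose part in the flag was not tested. In the 18mo controls, contralateral replicate 2 called 8 regions of the glycine receptor genes, and the nearest other library 5. No receptor region was exclusive to opposite sides of a comparison at the 2 ages or in the 2 kinds of control, and no interaction of IOP with age passed.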

How the results depend on the processing

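Of 91 values under 8 alternatives other than leaving out a library, 72 stayed within 1.5 times the reported count. The stricter q-value and the dropped filter on regions changed none of the counts, and many others were 0 that stayed 0. The 72 are therefore no measure of how stable the counts are. With equal numbers of peaks, regions more often called at 3mo became 1, those called more often after IOP 0, those only in 3mo contralateral against IOP 0, those only in 18mo IOP 0 and only in 18mo contralateral against IOP 3, those only in contralateral against untreated 6 at 3mo, those only in untreated 0 at both ages, and regions in all libraries 28. With peaks over at least 50% of a region, regions more often called after IOP became 0, those only in 18mo IOP 0, those only in contralateral against untreated 17 at 3mo and 22 at 18mo, those only in untreated 0 at both ages, regions in all libraries 7, genes with a start-site region in all libraries 2 and limma's age calls 1 receptor gene.

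Leaving out each library in turn gave 0 to 1 regions more often called at 18mo, 0 to 1 more often at 3mo, 0 to 2 less often after IOP, 0 to 2 only in 3mo IOP, 1 to 9 only in 3mo contralateral, 1 to 3 only in 18mo IOP and 7 to 15 only in 18mo contralateral. Between the controls it gave 2 to 10 and 1 to 5 at 3mo (only in contralateral and only in untreated) and 10 to 25 and 1 to 2 at 18mo. A comparison of 2 against 3 libraries has fewer calls to meet. Regions called in all libraries numbered 43 to 47, and genes with such a start-site region 15 to 18. The highest of both came without 18mo IOP replicate 3. The libraries that moved a count by over 1.5 times were, for age, 3mo contralateral replicate 2 and 3mo untreated replicate 6 (1 more often at 18mo) and 3mo untreated replicates 4 and 5 (1 more often at 3mo). For regions less often called after IOP they were 3mo contralateral replicate 1 and 3mo IOP replicate 2 (2 each) and 3mo contralateral replicate 3, 18mo contralateral replicate 3 and 18mo IOP replicates 1 and 2 (1 each). For regions only in 3mo contralateral libraries they were contralateral replicates 1 (9) and 3 (3) and IOP replicates 1 (2) and 2 (3), and for those only in 3mo IOP libraries contralateral replicate 2 (2) and IOP replicate 1 (1). At 18mo they were contralateral replicates 2 (15) and 3 (14) and IOP replicates 1 (13), 2 (11) and 3 (3 regions only in IOP). Between the controls they were 3mo contralateral replicates 1 (10), 3 (7) and 2 (5 only in untreated), 3mo untreated replicates 5 (2 only in untreated) and 6 (9, and 2 only in untreated), and 18mo contralateral replicates 2 (25, and 2 only in untreated) and 3 (16) and 18mo untreated replicate 4 (16).

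As for the replicate numbers, the correlation of same-numbered IOP and contralateral libraries ran from −0.11 to 0.14 and that of the ages from −0.24 to 0.07. These correlations are of the numbers of called regions per gene. They cannot show whether same-numbered libraries came from the same animal. With a replicate block, the regions more often called after IOP went from 1 to 0. The 1 region could not pass there, because a contralateral library also called it. Over all genes, limma with this block called 8 higher and 3 lower with age (43 and 25 without) and 0 with IOP (3 without). The cause of these lower limma counts was not tested. The lists give no read depth, so a region missing in a library was not detectable at that depth and cannot be called closed.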
